A study of Cryptomeria japonica with 72 samples.

Results

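The rooting end of a stem cutting was compared with its stem on the first day in soil: 3 arrays of the base against 3 arrays of the middle of *Cryptomeria japonica* (sugi) cuttings at 1 day post insertion (1 dpi), 6 of the 72 arrays of the series. All cuttings were of the plus-tree clone Tsukuba 1 and came from 18-year-old donor trees in the field, so the comparison describes 1 genotype. They stood in soil in an irrigated greenhouse whose conditions were not controlled. The base was the lowest 1 cm, underground, and the middle was a 1 cm piece from above the soil. The study sampled 3 cuttings at each time. The labels do not say which base and middle pieces came from the same cutting, so they were compared as unpaired. The same parts were sampled at 0 h post excision (0 hpe), 0 h and 3 h post insertion (0 hpi and 3 hpi), 3 dpi, and 1, 3 and 6 weeks post insertion (wpi), and needles were sampled at the same times. Of the 19304 target sequences on the array, 12833 were well above background in every spot of all 6 arrays and were tested. A level is given as the log2 of the signal relative to the 75th percentile of its array, so that 0 equals that percentile, and a difference is base minus middle on that scale.

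A conifer cutting has to close its wound, take up water without roots, and turn differentiated stem cells into root primordia. Wounding and jasmonate signalling come first, auxin that moves down the stem collects at the base, and the base turns from a photosynthesizing part into one that draws on sugars from above. Below the soil surface the base is also out of the light.

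The 75th percentile of the signal was lower on the base arrays (489, 295 and 642 for replicates 1 to 3) than on the middle arrays (850, 989 and 1160), and the shares of spots well above background were 74.8, 74.5 and 80.0% against 78.6, 81.0 and 84.0%. All base arrays lay on other slides than the middle arrays, so slide and part cannot be told apart. The spike-in control probes had median signals of 926, 3810 and 1940 on the base arrays and 1370, 1780 and 1610 on the middle arrays. Base replicate 2 thus had the highest spike-in signal and the lowest 75th percentile, and what this did to the calls was not tested. By its correlations, and not by these quality values, base replicate 1 stood between the parts. Across the tested targets it correlated with the mean of base replicates 2 and 3 at r = 0.943 and with the mean of the middle arrays at r = 0.943, while base replicates 2 and 3 correlated with each other at 0.975. Targets are not independent replicates, and these r are descriptions. The counts of calls over all targets and over each gene list at 1 dpi are therefore also given without base replicate 1.

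At 1 dpi 744 targets differed between the parts (limma over the 48 base and middle arrays, adjusted p below 0.05 and at least 2-fold), which is 5.8% of those tested. Of these, 394 were higher at the base (3.07% of those tested) and 350 were lower (2.73%). The median difference over all targets tested was 0.04. The difference was at least 4-fold in 93 of the higher and 73 of the lower calls. The 3 base values and the 3 middle values did not overlap in 704 of the 744 calls, but they also did not overlap in 39.9% of all targets tested.

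The number of calls rested on single arrays. Without base replicate 1 it was 1478 (818 higher and 660 lower, 6.37 and 5.14% of those tested), and 705 of the 744 calls were among them. Without base replicate 2 it was 69, without base replicate 3 it was 106, and without middle replicates 1, 2 and 3 it was 143, 406 and 482. All 744 calls kept their direction with each array left out. For the 704 calls without overlap this could not be otherwise, so it is no measure of stability. The call itself was kept in all 6 of these fits by 53 targets, 21 higher and 32 lower. The split also depended on the scaling: 53.0% of the calls were higher at the base on the 75th percentile, 71.7% when arrays were scaled to their median, which shifted the median of all differences from 0.04 to 0.16, and 71.2% after another background correction (normexp).

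**Figure D1:**
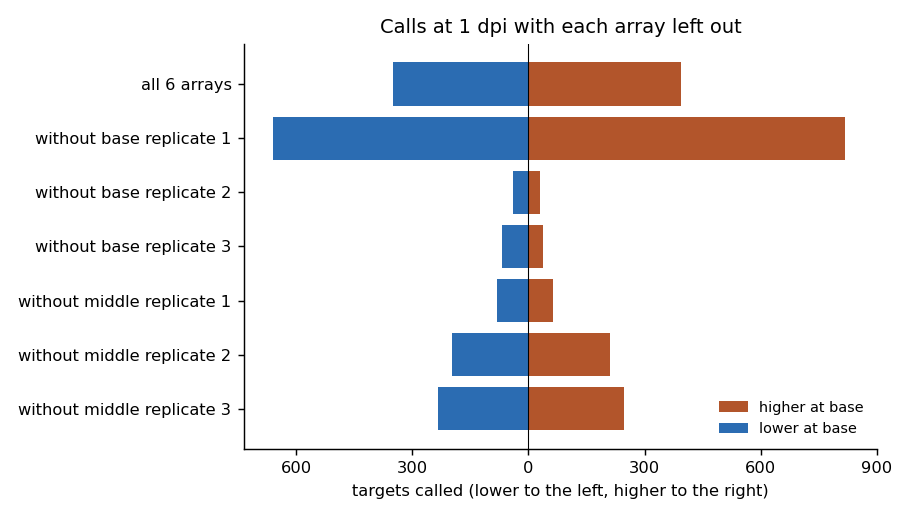
Targets called at 1 dpi (x axis, number of targets; lower at the base to the left of 0, higher to the right) with all 6 arrays and with each array left out. The counts run from 69 targets without base replicate 2 to 1478 without base replicate 1.

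The background limit differed between the parts. The first percentile of the levels well above background averaged -4.26 on the base arrays and -5.97 on the middle arrays. A target that passed the filter with a middle mean below -4.26 could hardly be anything but higher at the base, and 84 of the 394 higher calls were of this kind. Among the 11961 targets whose mean level over the 6 arrays was more than 1 above that limit, 297 were higher and 348 were lower, which is 46.0% higher. Leaving out base replicate 1 gave 612 and 658 (48.2% higher), and 156 of the 818 higher calls lay below the limit in the middle.

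**Figure D2:**
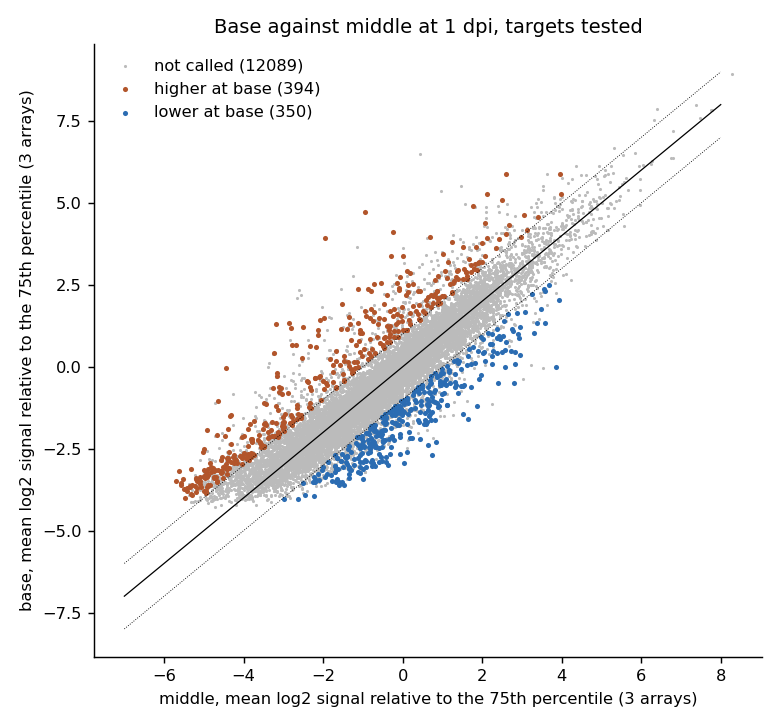
Mean level of each tested target at the base (y axis) against the middle (x axis) at 1 dpi, both as log2 signal relative to the 75th percentile, 3 arrays each; solid line, no difference; dotted lines, 2-fold. The 394 higher calls include a band at the lower left where the base signal neared background, and the 350 lower calls lie over the whole range of levels above it.

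Gene names are those of the best Arabidopsis match in the study's annotation tables (E value below 1e-05). A copy of these tables that is not complete named 4321 of the 12833 tested targets, so that 250 of the 744 calls have a name, 121 higher and 129 lower. Of the named targets tested 5.79% were called, against 5.8% of all. The marker lists for xylem, phloem, dividing cells and the epidermis had no called member, though most xylem markers had a lower mean at the base. The root tip list had none either, but it held only SCL1, SCL3 and RCP1 targets. It missed the SHORT-ROOT (SHR) homologs and the SCARECROW homolog SCR (reCj20794), and SCR was called lower at the base (-1.98). Of the 44 epidermis and cuticle markers only 15 were tested, 11 were not well above background on any of the 6 arrays, and 4 were so on all middle arrays and on no base array. The summed linear signal of each of these lists, relative to the 75th percentile, overlapped between the parts except in the root tip list. There the 4 targets summed to 12.5 to 14.9 at the base and 9.4 to 11.6 in the middle. Without SCR and SHR this sum cannot be read as an amount of root tip cells. For green cells the 4 markers summed to 25 to 41.4 at the base and 50.1 to 60.1 in the middle, with 1 member called lower. All 4 were well above background on all 6 arrays, so the base still held photosynthetic transcripts. In these bulk pieces, fewer cells of a type and less RNA per cell cannot be told apart.

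Several transcripts of the light reactions were lower at the base. Of 13 tested targets for photosystem, light harvesting and ferredoxin proteins, 4 were lower and none was higher (30.8% called), and the median of the 13 differences was -1.13, against 0.04 for all named targets. Without base replicate 1, 6 of the 13 were lower. The green cell markers above belong to the same list and moved with it, and their part in the result was not tested. PSBTN (reCj09225), a small subunit of photosystem II, had levels of 1.18, 0.23 and -0.04 at the base against 2.53, 2.82 and 2.15 in the middle. The difference was -2.05 ± 0.58 (SE, adjusted p = 0.0229), and every base array lay below every middle array. PSBTN had already differed by -0.98 at 0 hpe, which was not called. Its base change minus middle change was -1.07 (adjusted p = 0.55). A ferredoxin-like protein (reCj25549), of the family that carries electrons from photosystem I, had -1.31, -1.76 and -1.06 against 1.15, 0.69 and 0.37, a difference of -2.11 ± 0.38 (adjusted p = 0.00116). PSBW (reCj31558), another small photosystem II subunit, and FED A (reCj28559), a leaf ferredoxin, differed by -1.84 and -1.68 (adjusted p = 0.0347 and 0.028). Outside the list, the chloroplast aldolase FBA1 (reCj07033) of the Calvin cycle was 0.13, 0.93 and 0.48 at the base against 3.22, 2.73 and 1.74 in the middle. The difference was -2.05 ± 0.64 (adjusted p = 0.0326), and it was not called without base replicate 1 (-1.86, adjusted p = 0.0571). FBA1 did not stand for its list. The 3 Calvin cycle and photorespiration targets had a median of 0.26 (0.57 without base replicate 1) and a highest difference of 0.73. Both parts took part in the decline: 11 of the 13 light reaction targets had fallen from 0 hpe at the base and 9 in the middle, with median changes of -2.51 and -1.78. Of these 5 targets, 4, 1 and 1 were called without base replicates 1, 2 and 3, and 1, 1 and 5 without middle replicates 1, 2 and 3 (adjusted p of the lost calls 0.057 to 0.15). The ferredoxin-like protein was called in every one of these fits.

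The clock gene GIGANTEA (GI, reCj17945), which links day length and light to the circadian clock in Arabidopsis, was lower at the base. Its level was -0.39, 0.36 and 0.25 at the base against 1.6, 1.88 and 1.65 in the middle, a difference of -1.64 ± 0.22 (SE, adjusted p = 6.15e-05). It was called with each array left out, with differences of -1.78 to -1.41. At 0 hpe the parts differed by -0.08 (adjusted p = 1.00) and at 3 hpi by 0.09 (adjusted p = 0.84). Middle GI had risen by 1.89 from 0 hpe to 1 dpi, while the change at the base was 0.33 (adjusted p = 0.205). The study counts 1 dpi from insertion, which came after excision, and gives a clock time only for excision. In the change within a part, time of day and time since excision cannot be told apart. A member of the NPH3 family (reCj19437), proteins that act with the phototropins in blue light responses, was -2.57, -3.51 and -2.89 at the base against 0.75, -1.03 and -0.83 in the middle, a difference of -2.62 ± 0.72 (adjusted p = 0.0196). It lost its call without base replicate 2 (adjusted p = 0.12), base replicate 3 (0.077) or middle replicate 1 (0.12).

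Polygalacturonase PG1, EXL3, GH9B1, SCR, AHP1 and PCNA1 were lower at the base. The first 3 were among the 8 lowest named differences, and SCR, AHP1 and PCNA1 came from different gene lists. The largest named difference below 0 was that of polygalacturonase PG1 (reCj14728), an enzyme that cuts pectin. It was -3.71, -2.53 and -1.82 at the base against 1.58, 0.27 and 0.37 in the middle, a difference of -3.43 ± 0.92 (SE, adjusted p = 0.0168), or 10.8-fold. PG1 had fallen in both parts from 0 hpe, with changes of -8.43 in the base and -5.03 in the middle. EXL3 (reCj21409), of the EXORDIUM family of wall proteins tied to growth, was -2.22, -2.69 and -1.70 against 0.76, 0.37 and 0.21, a difference of -2.65 ± 0.57 (adjusted p = 0.00518). EXL3 had risen in the middle by 3.02 from 0 hpe, and its change of 0.86 at the base was not called (adjusted p = 0.199). The 2 changes were not shown to differ (base change minus middle change -2.15, adjusted p = 0.298). The endoglucanase GH9B1 (reCj21246) differed by -2.36 (adjusted p = 0.0487). The SCARECROW homolog SCR (reCj20794), a GRAS factor that patterns the root in Arabidopsis, was -0.91, -1.56 and -0.58 at the base against 1.53, 0.90 and 0.48 in the middle, a difference of -1.98 ± 0.45 (adjusted p = 0.00685). At the base it had fallen since 0 hpe (change -2.39). The phosphotransfer protein AHP1 (reCj27357) of cytokinin signalling was 1.18, 0.48 and 0.46 against 2.43, 2.07 and 2.23, a difference of -1.54 ± 0.34 (adjusted p = 0.00636). The replication clamp PCNA1 (reCj29743) differed by -2.17 (adjusted p = 0.0416), but its base values ran from -0.16 down to -3.27, and without base replicate 3 the difference was -1.34 (adjusted p = 0.303). It was the only called member of 77 tested cell cycle and replication targets, whose median difference was -0.07, and without base replicate 1 there were 1 higher and 3 lower. All 6 targets stayed called without base replicate 1, none without base replicate 2 and 2 without base replicate 3, and 2, 4 and 4 without middle replicates 1, 2 and 3 (adjusted p of the lost calls 0.05 to 0.3).

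The other named targets among the 8 lowest differences were of mixed function. An aspartyl protease (reCj22742) was -2.53, -2.40 and -2.19 at the base against 1.02, -0.42 and 1.32 in the middle, a difference of -3.01 ± 0.82 (SE, adjusted p = 0.0184). The tonoplast aquaporin TIP4;1 (reCj26912), a water channel of the vacuole, was 0.75, 0.16 and 0.41 against 3.38, 1.52 and 3.56, a difference of -2.38 ± 0.61 (adjusted p = 0.0133). A DUF599 protein (reCj30605) and a P-loop nucleoside triphosphatase (reCj22060) differed by -2.96 and -2.46 (adjusted p = 0.00956 and 0.000334). The P-loop protein was called with each array left out. Without base replicate 2, base replicate 3 or middle replicate 1, the other targets lost 3, 3 and 2 calls, and 2 without middle replicate 3 (adjusted p 0.059 to 0.092).

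**Figure D3:**
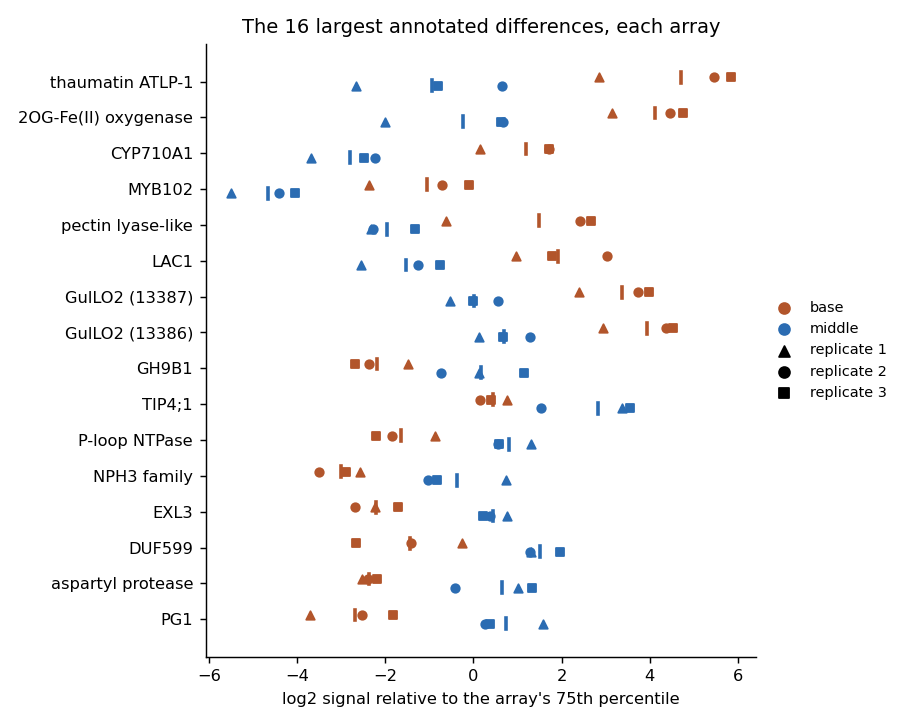
Level of the 8 highest and 8 lowest named differences at 1 dpi on each array (x axis, log2 signal relative to the 75th percentile; one line per target; brown, base; blue, middle; symbols, replicate number; short vertical lines, means of 3 arrays). Base replicate 1 (brown triangles) was the base value nearest to the middle in all 8 higher targets.

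Transcripts of defence proteins split in 2 directions. Of 118 tested targets, 6 were higher and 13 lower at the base (16.1% called, median difference -0.10), and without base replicate 1 the counts were 9 and 19. The largest named difference of all was that of a thaumatin-like pathogenesis-related protein (ATLP-1, reCj30314), of a family of antifungal proteins. Its level was 2.85, 5.45 and 5.84 at the base against -2.66, 0.65 and -0.81 in the middle. The difference was 5.65 ± 1.25 (SE, adjusted p = 0.00626), or 50.2-fold, with all base arrays above all middle arrays, although each group spread over about 3 log2 units. The base had risen by 6.87 since 0 hpe, and the change of 0.79 in the middle did not pass (adjusted p = 0.64). In the direct test of base change minus middle change ATLP-1 was not called. A matrixin (reCj23542), an extracellular metalloprotease, was -0.14, 2.07 and 1.57 at the base against -1.87, -1.20 and -1.55 in the middle, a difference of 2.71 (adjusted p = 0.0197). All 13 lower members were intracellular immune receptors of the NB-LRR kind, such as the ZAR1 homolog reCj08428, which was -2.43, -3.52 and -3.26 at the base against -1.35, -1.55 and -1.15 in the middle (difference -1.72 ± 0.39, adjusted p = 0.00668). Grouped after their values were seen, 84 receptor targets were tested, of which 13 were lower and 3 higher, with a median of -0.25. Of the 6 ZAR1 homologs 5 were lower. There were 18 lower and 3 higher receptors and 6 lower ZAR1 homologs without base replicate 1. These receptors form a large family of similar genes, and probes may share transcripts. The helper receptor ADR1-L1 (reCj00069) went the other way, at -0.46, -0.47 and -1.43 against -3.75, -2.69 and -2.22 (difference 2.10, adjusted p = 0.045), but lost its call without base replicate 1 (1.93, adjusted p = 0.0751). Of the 4 targets given by value, none stayed called without base replicate 2 or 3, and 1, 3 and 3 did without middle replicates 1, 2 and 3 (adjusted p of the lost calls 0.051 to 0.2).

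Transcription factors of the WRKY, NAC and MYB families were called only as higher. Of 35 tested, 5 were higher and none lower (14.3% called, median 0.36), and without base replicate 1 the counts were 6 and 1. MYB102 (reCj29749), a wound-responsive factor in Arabidopsis, was -2.36, -0.70 and -0.11 at the base against -5.50, -4.41 and -4.04 in the middle, a difference of 3.59 ± 0.60 (SE, adjusted p = 0.000519) or 12-fold. Its middle mean of -4.65 lay below the limit of -4.26 described above. NAC025 (reCj24436) was 1.74, 2.83 and 2.56 against -1.67, -0.23 and -0.69, a difference of 3.24 ± 0.77 (adjusted p = 0.00921). WRKY14 (reCj30863) differed by 2.55 (adjusted p = 0.039). WRKY11 (reCj12626), of a family of factors in wound and pathogen responses, was 4.07, 4.50 and 4.37 at the base against 2.64, 2.88 and 2.47 in the middle. That is a difference of 1.65 ± 0.34 (adjusted p = 0.00393) at a high level with an SD of 0.22 and 0.21 (n = 3 each). MYB102 and WRKY11 were called with each array left out, whereas NAC025 and WRKY14 lost their calls without base replicate 2, base replicate 3 or middle replicate 1, and 1 of them did without middle replicate 2 and 1 without middle replicate 3 (adjusted p 0.057 to 0.17).

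Among 69 tested P450 and glycosyltransferase targets, 4 were higher and none lower at the base, a share called (5.80%) at the background of 5.8%, with a median of -0.12. The counts were 7 and 1 without base replicate 1. Of 44 detoxification and redox targets 1 was higher (2.27%, median -0.16), and 2 were higher and 3 lower without that array. The 8 enzymes given here were called singly. A 2-oxoglutarate and Fe(II)-dependent oxygenase (reCj26574) was 3.15, 4.45 and 4.75 at the base against -2.01, 0.66 and 0.63 in the middle, a difference of 4.36 ± 1.27 (SE, adjusted p = 0.0243) or 20.5-fold. CYP710A1 (reCj21195), a cytochrome P450 that makes stigmasterol in Arabidopsis, was 0.15, 1.71 and 1.71 against -3.69, -2.24 and -2.48, a difference of 3.99 ± 1.06 (adjusted p = 0.0159). Both GulLO2 targets, sugar lactone oxidases related to ascorbate synthesis, were higher. reCj13387 was 2.40, 3.74 and 3.97 at the base against -0.52, 0.56 and -0.01 in the middle (difference 3.36, adjusted p = 0.0143), and reCj13386 differed by 3.25 (adjusted p = 0.0262). Several named targets share an annotation (GulLO2, J20, ABCG40, pyruvate kinase, ZAR1), and whether their probes tell the transcripts apart was not tested. A peroxidase (reCj26533) differed by 2.13 (adjusted p = 0.0485). The UDP-glycosyltransferases reCj23712, reCj12302 and reCj12303 differed by 2.56, 1.44 and 1.02. None of these 8 targets stayed called without base replicate 2, base replicate 3 or middle replicate 1, and 6 and 3 did without middle replicates 2 and 3 (adjusted p of the lost calls 0.06 to 0.23). All 8 were called without base replicate 1. Its level lay below the mean of the other base arrays in each, so leaving it out had to enlarge the differences.

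Cell wall genes were called in both directions. Of 77 tested, 5 were higher and 2 lower (9.09% called, median -0.33), and of 32 phenylpropanoid and lignin targets 2 were higher and 1 lower (9.38%, median 0.01). Leaving out base replicate 1 gave 6 and 5 for the wall list and 2 and 2 for the lignin list. Laccase LAC1 (reCj22559), of the enzymes that couple lignin precursors, was 0.96, 3.02 and 1.79 at the base against -2.55, -1.26 and -0.76 in the middle, a difference of 3.44 ± 0.97 (SE, adjusted p = 0.0216). LAC12 (reCj16362) differed by 1.62 (adjusted p = 0.0309). Other laccases had lower means at the base, without a call. The LAC17 target reCj22051 had means of -1.33 at the base and 0.51 in the middle. Those of reCj30719 were -1.37 and -0.03, and those of reCj21269 were 1.83 and 2.35. The LAC17 target reCj21720 and the laccase IRX12 (reCj21077) also had lower base means but were too dim to be tested. A pectin lyase-like protein (reCj24692) was -0.62, 2.41 and 2.67 against -2.32, -2.28 and -1.32. The difference was 3.46 ± 1.15 (adjusted p = 0.0423), and base replicate 1 lay about 3 log2 units below the other base arrays. Without that array it was 4.51 (adjusted p = 0.00968). The expansin-like EXLB1 (reCj28313), of a family near the wall-loosening expansins, was 4.35, 5.01 and 5.39 at the base against 1.49, 2.97 and 0.86 in the middle, a difference of 3.15 ± 0.79 (adjusted p = 0.0121). Germin-like GLP5 (reCj31596) differed by 2.44 (adjusted p = 0.014). In the other direction, a dirigent-like protein (reCj28368), of the family that steers lignan coupling, was 2.27, 1.53 and 1.19 against 3.32, 3.37 and 2.51, a difference of -1.40 ± 0.41 (adjusted p = 0.0255). The 6 called targets given here stayed called without base replicate 1, and none did without base replicate 2, base replicate 3 or middle replicate 1. Without middle replicates 2 and 3, 2 and 4 did (adjusted p of the lost calls 0.05 to 0.21).

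The shares called in the hormone lists ran from 0% for auxin to 16.7% for jasmonate, against 5.8% of all targets tested. None of 29 tested auxin response and transport targets was called (median -0.43), and without base replicate 1 there were 1 higher and 1 lower. Of the 37 candidate targets that the study singled out for rooting or measured by PCR, all were tested and only SCR was called. Without base replicate 1 nitrate reductase NIA1 (reCj19463; 2.46, adjusted p = 0.0391) and an ARF2 target (reCj18202; 1.01, adjusted p = 0.0299) were called higher as well. With all arrays they differed by 2.13 and 0.80 (adjusted p = 0.0616 and 0.0737). The study's inclusion of these candidates rested in part on these samples. In jasmonate synthesis and response, 2 of 18 targets were higher and 1 lower (16.7%, median 0.38), and 2 and none without base replicate 1. LOX3 (reCj11624), a lipoxygenase at the start of jasmonate synthesis, was 0.76, 1.67 and 1.26 at the base against -0.66, -0.18 and -0.38 in the middle, a difference of 1.64 ± 0.39 (SE, adjusted p = 0.00956). Allene oxide synthase (AOS, reCj21265), the next enzyme, was 2.95, 4.47 and 4.31 against 2.36, 2.39 and 2.48, a difference of 1.5 ± 0.49 (adjusted p = 0.0389). LOX1 (reCj19631), a lipoxygenase of another branch, differed by -1.72 (adjusted p = 0.0372), and this was not called without base replicate 1 (-1.42, adjusted p = 0.0887). Of 26 ethylene targets 1 was higher and 1 lower (7.69%, median 0.63), and 3 and 2 without base replicate 1. ERF8 (reCj31762) was 0.84, 1.26 and 1.01 at the base against -1.44, -0.38 and -1.22 in the middle (difference 2.05, adjusted p = 0.0446), while EBP (reCj14085) differed by -1.13 (adjusted p = 0.039) and had risen in both parts. EBP had differed by -1.01 at 0 hpe (adjusted p = 1.00), and its difference in change was -0.12 (adjusted p = 0.927). In the abscisic acid and drought list a NAC factor (reCj19574) was the only call of 15, also without base replicate 1, with a difference of 2.03 (adjusted p = 0.0149). The GRAS factor PAT1 (reCj19861), known from phytochrome A signalling, differed by 1.28 (adjusted p = 0.0491) and was not called without base replicate 1 (1.19, adjusted p = 0.0786). Of these 7 targets none stayed called without base replicate 2, base replicate 3 or middle replicate 1, and 2 and 2 did without middle replicates 2 and 3 (adjusted p of the lost calls 0.055 to 0.21).

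Genes of sugar breakdown, fermentation and nitrogen transport had calls only as higher at the base. Of 34 sugar and starch targets 4 were higher and none lower (11.8%, median 0.13), and 5 and none without base replicate 1. Of these, 3 were pyruvate kinases, which close glycolysis. The one with the highest level, reCj13828, was 3.99, 4.36 and 3.83 at the base against 2.21, 3.03 and 2.53 in the middle, a difference of 1.47 ± 0.33 (SE, adjusted p = 0.00647). reCj20725 and reCj13829 differed by 1.31 and 2.38 (adjusted p = 0.0135 and 0.0152). The sugar transporter STP7 (reCj21702) was 0.92, 2.81 and 3.09 against 0.20, 0.31 and -0.11, a difference of 2.14 ± 0.42 (adjusted p = 0.00246) that was called with each array left out. A pyruvate decarboxylase (reCj19600), the first step of ethanol fermentation, was 1.59, 1.26 and 1.09 at the base against -2.07, -1.03 and -0.84 in the middle, a difference of 2.63 ± 0.73 (adjusted p = 0.0196). It was the only call among 11 low oxygen targets, whose median difference was 1.18. Of the 11, 9 had risen since 0 hpe at the base and 10 in the middle. Their median changes were 4.59 and 3.27. Without base replicate 1 the list had 1 higher and 2 lower calls and a median difference of 0.77. The list of nitrogen and amino acid genes had 5 higher and none lower of 22 (22.7%, median 0.52), and 6 and none without base replicate 1. The ammonium transporter AMT2 (reCj22684) was 2.25, 3.48 and 3.09 against 1.31, 1.55 and 1.22 (difference 1.58, adjusted p = 0.028). The amino acid carriers AAP2 (reCj21901), BAT1 (reCj20338) and reCj08838 differed by 1.36, 1.29 and 1.15. AAP2 had fallen in both parts since 0 hpe (changes -1.61 and -2.85). Without base replicates 1, 2 and 3, 9, 1 and 3 of these 9 targets were called, and without middle replicates 1, 2 and 3, 1, 5 and 5 were (adjusted p of the lost calls 0.051 to 0.22). None of 97 ribosomal and 23 respiration targets was called (medians -0.07 and 0.24), while without base replicate 1 there were 2 higher and 2 lower ribosomal targets and 1 higher respiration target. None of 17 flavonoid and 4 chlorophyll and carotenoid targets was called with or without that array (medians -0.30 and 0.0038 with it). The lists of Calvin cycle, cytokinin and gibberellin, GRAS and clock genes had 1 of 3, 1 of 13, 2 of 24 and 1 of 3 targets called, and 0, 1, 3 and 2 without base replicate 1.

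**Figure D4:**
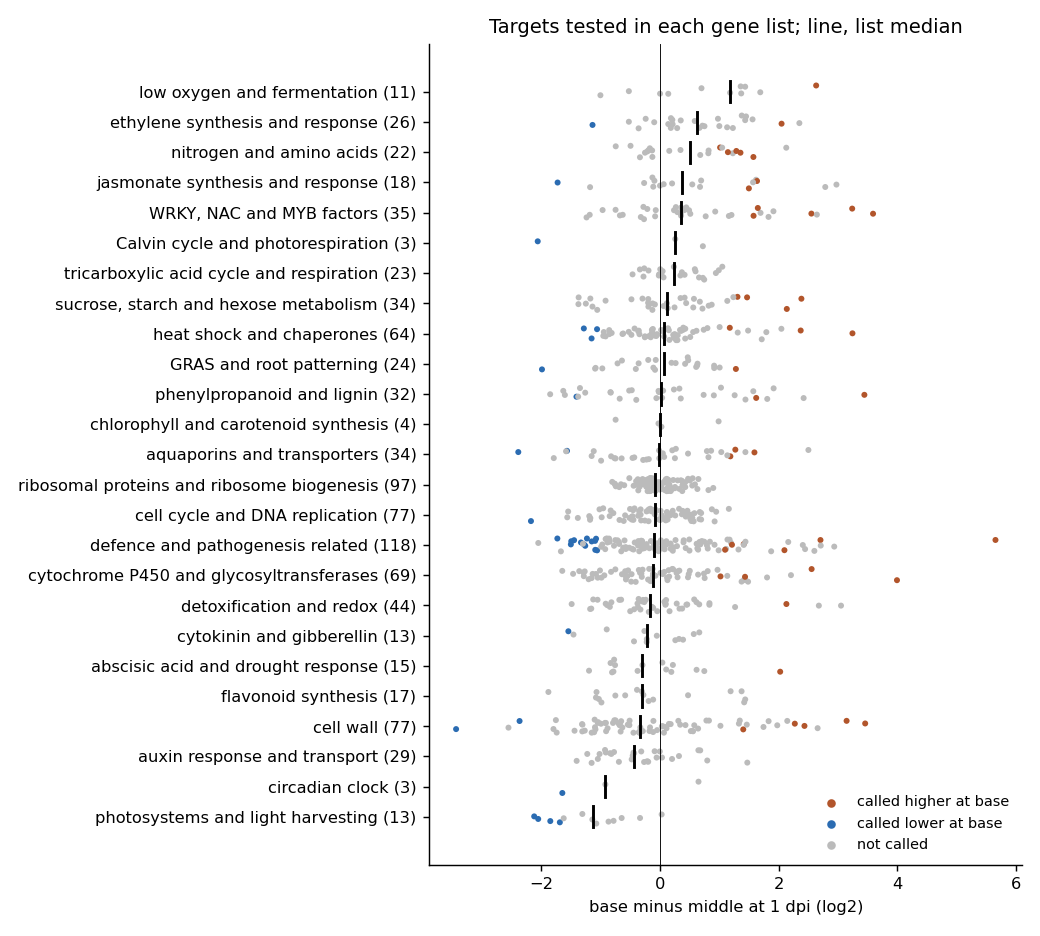
Difference between base and middle at 1 dpi (x axis, log2) of each tested target in 25 gene lists (number tested in brackets); brown and blue, called higher and lower at the base; grey, not called; black line, list median. The photosystem list has its median at -1.13 and the low oxygen list at 1.18 (0.77 without base replicate 1), while the 97 ribosomal targets lie within 1 log2 unit of 0.

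Chaperones and transporters were called in both directions. Of 64 heat shock and chaperone targets 3 were higher and 3 lower (9.38%, median 0.07), and 3 and 1 without base replicate 1. Both J20 targets, chloroplast co-chaperones of the DnaJ family, were higher: reCj32576 was 2.41, 2.65 and 2.50 at the base against -2.82, 0.93 and -0.29 in the middle, a difference of 3.24 ± 0.93 (SE, adjusted p = 0.0232), and reCj31389 differed by 2.37 (adjusted p = 0.0298). Nearly all of their spread lay in the middle. The DnaJ protein reCj26266 differed by 1.18 (adjusted p = 0.0419), or 0.95 without base replicate 1 (adjusted p = 0.107), and the co-chaperone GrpE (reCj25112) by -1.28 (adjusted p = 0.0212). Of 34 aquaporin and transporter targets 3 were higher and 2 lower (14.7%, median -0.01), and 6 and 5 without base replicate 1. The targets for ABCG40, an importer of abscisic acid in Arabidopsis, were both higher. reCj08347 was -2.0, -1.68 and -1.37 against -3.33, -3.26 and -3.25, a difference of 1.59 ± 0.33 (adjusted p = 0.00363), and was called with each array left out. reCj17888 differed by 1.27 (adjusted p = 0.0427). ABCB13 (reCj18062) differed by -1.56 (adjusted p = 0.0433). Of these 7 targets, 6, 1 and 1 were called without base replicates 1, 2 and 3, and 1, 3 and 3 without middle replicates 1, 2 and 3 (adjusted p of the lost calls 0.057 to 0.25).

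Targets without a usable name held the widest differences. reCj19102 was 3.36, 3.70 and 4.70 at the base against -4.02, -0.84 and -0.98 in the middle, a difference of 5.87 ± 1.48 (SE, adjusted p = 0.0125) or 58.4-fold. It had risen in both parts, by 11.29 at the base and by 6.41 in the middle. Its 0 hpe means of -7.37 and -8.36 lay below the 1 dpi background limits of -4.26 and -5.97. The sizes of these rises are therefore not well measured. reCj27637 differed by 4.50 (adjusted p = 0.0243). In the other direction, reCj34002 was 1.23, -1.08 and -0.21 against 4.35, 4.43 and 2.81, a difference of -3.88 ± 1.16 (adjusted p = 0.0278), and reCj03551 differed by -3.27 (adjusted p = 0.0196). All 4 were called without base replicate 1 and without middle replicate 3, 1 without middle replicate 2, and none without base replicate 2, base replicate 3 or middle replicate 1 (adjusted p 0.054 to 0.16).

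Some targets were at background in a whole part, so that only a bound could be given, as the mean of the bright arrays over the mean of the dim ones, with each dim array at no less than its lowest level well above background. At the base 2 targets were well above background on all 3 arrays with no such spot in the middle: reCj21296 was at least 6.37-fold higher (adjusted p = 0.0937 over all targets) and reCj32441 at least 5.52-fold (adjusted p = 0.00209). The reverse held for 178 targets, but the bound reached 2-fold in only 21 of them, and the base arrays had the higher background limit. The highest bounds were at least 8.28-fold for reCj28489, 5.07-fold for reCj32789 and 5.04-fold for reCj24584 (adjusted p = 0.039, 0.0103 and 0.0528). None of these 5 had a usable name.

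Few targets differed between the parts at 0 hpe and 0 hpi, and more from 3 hpi on. On the same 12833 targets, base and middle differed in 1 target at 0 hpe (0.00779%), 11 at 0 hpi (0.0857%, with 0.0468% lower), 692 at 3 hpi (5.39%, with 1.78% higher and 3.62% lower) and 1766 at 3 dpi (13.8%, with 6.95% higher and 6.81% lower). At 1, 3 and 6 wpi 3008 (23.4%, with 13.5% higher and 9.9% lower), 3294 (25.7%, with 13.7% and 12%) and 3549 (27.7%, with 16% and 11.7%) differed. None of the 744 calls of 1 dpi was called at 0 hpe. At 3 hpi 132 were called in the same direction (17.7% of the 744 and 19.1% of the calls at 3 hpi), and at 3 dpi 531 were (71.4% and 30.1%). At 3 dpi 739 of the 744 had a difference of the same sign, as had 10603 of all 12833 targets. These times rest on other arrays, but their slides also separate the parts. The same direction was called for 543 of the 744 at 1 wpi, 372 at 3 wpi and 344 at 6 wpi, and the opposite direction for 1, 12 and 20. The numbers of 1 dpi calls shared with 3 hpi and 3 dpi were 198 and 849 without base replicate 1, 23 and 55 without base replicate 2, and 32 and 78 without base replicate 3. They were 41 and 115, 95 and 290, and 96 and 330 without middle replicates 1, 2 and 3.

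**Figure D5:**
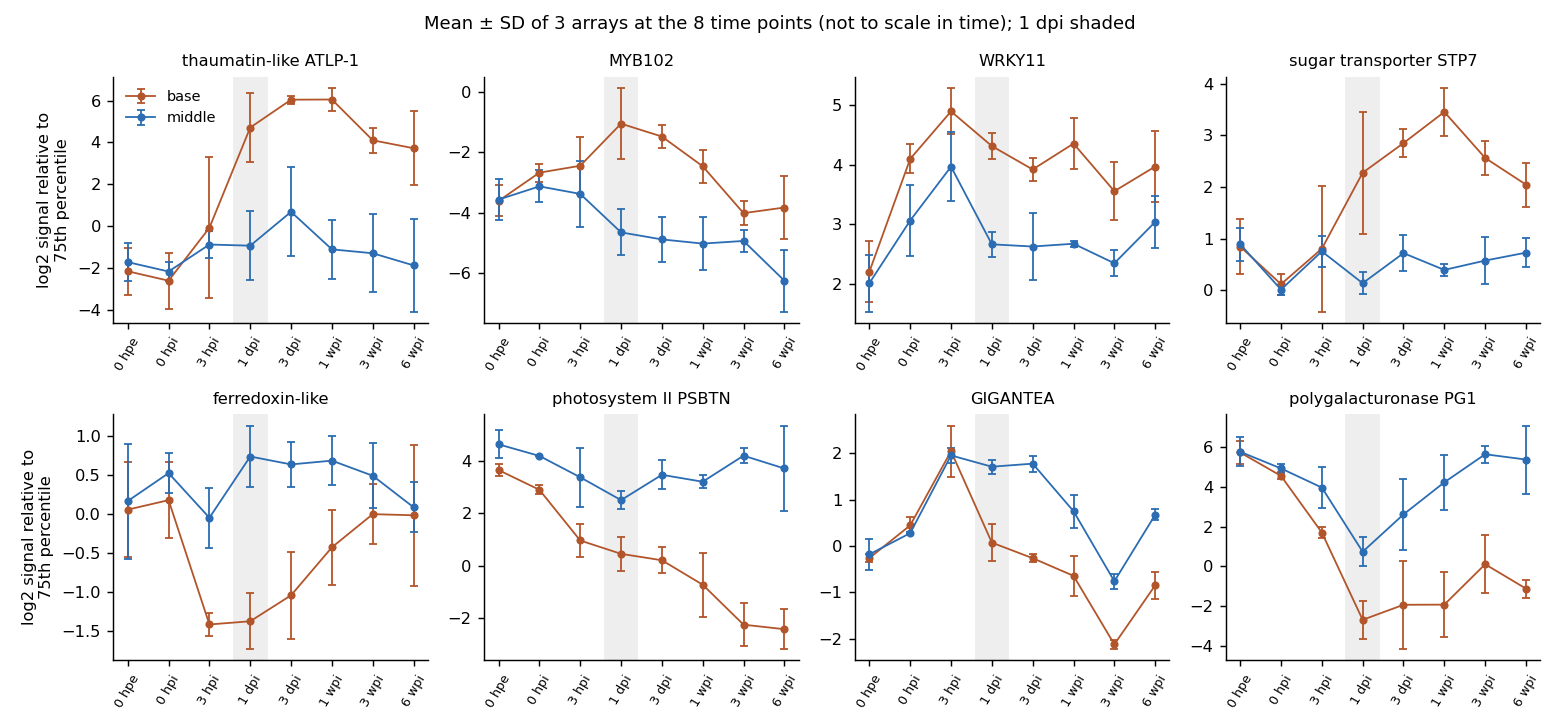
Levels of 8 targets at the base (brown) and in the middle (blue) at the 8 time points (x axis, in order and not to scale; y axis, log2 signal relative to the 75th percentile; points and bars, mean and SD of 3 arrays; 1 dpi shaded). Both parts start together at 0 hpe except in PSBTN, ATLP-1 separates between 3 hpi and 1 dpi, and GI is alike up to 3 hpi and apart from 1 dpi on. MYB102 in the middle at 6 wpi was not well above background.

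Between 0 hpe and 1 dpi 4257 targets were called as changed at the base (33.2%, of which 19.2% rose and 13.9% fell) and 3063 in the middle (23.9%, with 14% and 9.82%). The background filter covered only the arrays of 1 dpi, so a level at 0 hpe or another time may lie at background. Of the 394 targets higher at the base, 272 had risen there and 36 had fallen in the middle, and 85 had risen in the middle too. Of the 350 lower targets, 243 had fallen at the base and 37 had risen in the middle, and 60 had fallen in the middle too. For 86 of the higher and 71 of the lower targets neither change was called. Base and middle had median changes of 1.62 and 0.13 for the higher targets and of -1.54 and -0.16 for the lower. These contrasts share the 1 dpi arrays with the comparison itself, so they describe the calls and do not test them. Without base replicate 1, 534 higher targets had risen and 473 lower targets had fallen at the base, and without base replicate 2 the counts were 23 and 31. They were 25 and 51 without base replicate 3, 44 and 54 without middle replicate 1, 166 and 144 without middle replicate 2, and 144 and 148 without middle replicate 3.

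Whether the change itself differed between the parts was tested as base change minus middle change, and 4 targets passed (0.0312%; 0.0234% with the lower change at the base), GIGANTEA among them.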

How the data were processed

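Of the 72 arrays, 6 were compared: base and middle at 1 dpi, 3 each, grouped by their labels. The authors deposited Agilent Feature Extraction 11.5 intensities (processed signal intensity of each of 61657 spots, with flags, not normalized between arrays) and a table of log2 values scaled to the 75th percentile and centred per probe. For each target its spots were averaged, leaving out those flagged as non-uniform (3 spots for 15559 targets, 4 for 3745), and log2 of the mean was taken relative to the array's 75th percentile. A target was tested if on all 6 arrays none of its spots had this flag, all were well above background, and the averaged signal exceeded 10. No spot was saturated. limma 3.58.1 in R 4.3.3 (lmFit, eBayes; 48 base and middle arrays, 16 groups) gave differences, SE and p adjusted by the Benjamini-Hochberg method over all targets tested. Precision is limited by how few arrays there were. The code was tested on simulated data.

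Named are the 8 highest and 8 lowest differences among called targets with an annotation and arrays apart, the 2 in each direction without one, called candidates of the study, up to 4 called members of each of 25 gene lists, the calls of the difference in change from 0 hpe, and the 3 highest bounds in each direction. The members and lists were chosen with earlier results of these data known. The normexp alternative used median signals, the columns given for spot and background. Alternatives were other filters, scalings, arrays in the fit and blocks, the authors' table, and leaving out arrays. Probe sequences and genome positions were not analysed here.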

Additional observations from a re-analysis of the deposited data

Results flagged for a closer look

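The change from 0 hpe to 1 dpi differed between base and middle in 4 targets by the test of that difference itself (limma, adjusted p below 0.05 and at least 2-fold; 0.0312% of the 12833 tested, of which 1755 had an unadjusted p below 0.05). GIGANTEA (reCj17945) changed by 0.33 at the base and by 1.89 in the middle, a difference in change of -1.56 (adjusted p = 0.0467). The targets without a usable name were reCj14756 (-2.19 at the base and -0.53 in the middle, difference -1.66, adjusted p = 0.0467), reCj15026 (-1.63 and -0.29, difference -1.34, adjusted p = 0.0467) and reCj00014 (0.95 and -0.45, difference 1.40, adjusted p = 0.0281). Of the 744 targets called at 1 dpi, 3 were among these 4, and the others were not shown to differ in change. reCj00014 differed by 0.94 at 1 dpi, under the 2-fold limit. The count was 261 without base replicate 1 at 1 dpi, none without base replicate 2 or 3 or middle replicate 1 or 2, and 1 without middle replicate 3. Left out in turn, the arrays of 0 hpe gave 11, 1 and none at the base and 2, none and 1 in the middle.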

How the results depend on the processing

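All 744 calls at 1 dpi kept their direction with each array left out, which was fixed in advance for the 704 whose arrays did not overlap. No call turned its direction under any alternative run. Left out in turn, the 1 dpi arrays gave 69 to 1478 calls, 29 to 818 higher and 40 to 660 lower, 23 to 198 shared with 3 hpi and 55 to 849 with 3 dpi, 23 to 534 higher and risen at the base, 1 to 92 higher and fallen in the middle, 31 to 473 lower and fallen at the base, 3 to 65 lower and risen in the middle, and 0 to 261 differences in change. In every such case the cause was not tested. Without any filter on dim spots there were 3476 calls (2833 higher, 643 lower), 2 differences in change, 237 calls shared with 3 hpi and 2940 with 3 dpi, and 741, 162, 446 and 59 of the 4 kinds in the order above (higher and risen, higher and fallen, lower and fallen, lower and risen). With the positive and significant flag 58 were higher and fallen in the middle, and 20 with the filter on all 48 arrays. A fit of the compared arrays alone gave no difference in change, 0 shared with 3 hpi and 21 higher and fallen. All 72 arrays gave 30 differences in change, and 1 and 269 calls shared with 0 hpe and 3 hpi. Quantile normalization gave 489 calls, 248 higher, 0 differences in change, 1 and 86 shared with 0 hpe and 3 hpi, and 167, 13 and 155 of the first 3 kinds. Scaling to the median gave 633 higher, 2 differences in change and 74 higher and fallen, and normexp 18 higher and fallen and 139 lower and fallen. With no minimum difference there were 1690 calls (1007 and 683), 1, 389 and 1239 shared with 0 hpe, 3 hpi and 3 dpi, and 680, 158, 456 and 119 of the 4 kinds. The parts were not paired in the main fit because the labels do not say that a replicate number is 1 cutting. Same-numbered base and middle arrays deviated together at r = -0.02, 0.21 and 0.07, and base replicate 3 and middle replicate 1 at 0.175. With 3 arrays a part, these r cannot show whether the numbers pair the arrays. With the replicate number as a block there were 1268 calls (667 and 601), 54 differences in change, and 334 and 893 shared with 3 hpi and 3 dpi. Slide as a random block gave 747 calls and the values the authors had processed gave 741 calls. Of the 72 named results, up to 30 lost their call under such settings, and 5 to 64 when a 1 dpi array was left out. Signals near background limit the low targets, more so at the base.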
